A study of Drosophila melanogaster with 2 samples.

Results

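Foxo is a forkhead transcription factor that the insulin pathway keeps out of the nucleus through the kinase Akt, and the peaks described here are those of its ChIP-seq profile that lay at promoters and not between a pair of divergent starts, called non-divergent promoter peaks below. A peak was included when its summit lay within 500 bp of an annotated transcription start site (TSS) and was not placed between a minus-strand TSS within 500 bp on its left and a plus-strand TSS within 500 bp on its right. In the authors' list thresholded by irreproducible discovery rate (IDR), 547 peaks met the rule and 880 did not, so that the class held 38.3% of the list (exact 95% Clopper-Pearson interval 35.8 to 40.9). Of the others, 193 lay between divergent starts and 687 lay beyond 500 bp of any TSS. A summit was left out only where it lay between the starts, so one to the side of a divergent pair stays in the class. With starts up to 1000 bp away also counted as such a pair, 488 of the 547 remained. The IDR list was the part of highest signal of a pooled list of 30000 regions, and it held 547 of the 8073 pooled regions at non-divergent promoters (6.78%), against 4.76% of all 30000. The rule used the distance to annotated starts and no measured signal or sequence, while the genes of a peak follow from that same distance.

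The study mapped binding sites in Drosophila melanogaster of the foxo-GFP strain, which carries a stable transgene for foxo with the green fluorescent protein fused to its C-terminus, and immunoprecipitation used an antibody to that protein, although another label field gives foxo as the antibody. Chromatin came from whole larvae at the wandering stage of the third instar, of pooled sex, so peaks from all tissues were mixed, and the promoter that drives the fusion is not given in the sources used here. There were 2 biological replicates, numbered 5 and 6, and 1 group, with no other genotype, stage or treatment. All comparisons below are therefore between classes of sites, and none is between conditions.

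A promoter is the stretch around a TSS where RNA polymerase II assembles, and a divergent promoter serves a pair of genes that are read away from each other out of 1 shared stretch. Many fly genes have several promoters, used at different stages or in different tissues, and peaks at an inner one lie inside the longer transcripts of the gene. Foxo is known to bind variants of a forkhead core sequence and to activate stress, metabolic and growth-restraint genes, Thor and InR among them, when insulin signalling is low. GAGA factor, the product of Trl, binds repeats of GA and opens chromatin at many developmentally regulated and paused promoters, while DREF binds the DNA replication-related element at promoters of broadly expressed genes.

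Sequences under some of the highest upstream peaks show where the summit falls and what kind of DNA lies there. All are from the dm6 build, are given 5′ to 3′ on the strand of the gene, and stop before any exon. The capital marks the summit base. Those for Ugalt, a transporter of UDP-galactose (chrX:2703853-2703948, minus strand), CG14100 (chr3L:19590562-19590682, minus strand), CG18549 (chr3R:12449160-12449280, plus strand) and the long non-coding gene lncRNA:CR31044 (chr3R:29214343-29214463, plus strand) lie in intergenic DNA before the only promoter of the gene. Those for ph-p, a Polycomb group protein (chrX:2137290-2137410, minus strand), larp, an RNA-binding protein (chr3R:28326501-28326621, minus strand), and Ptpmeg2, a protein tyrosine phosphatase (chrX:9646042-9646162, minus strand), lie in introns before an inner promoter.
Ugalt: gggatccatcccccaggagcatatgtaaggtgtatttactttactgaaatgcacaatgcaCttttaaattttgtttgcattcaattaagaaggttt
CG14100: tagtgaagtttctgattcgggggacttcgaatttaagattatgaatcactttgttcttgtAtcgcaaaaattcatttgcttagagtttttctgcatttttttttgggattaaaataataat
CG18549: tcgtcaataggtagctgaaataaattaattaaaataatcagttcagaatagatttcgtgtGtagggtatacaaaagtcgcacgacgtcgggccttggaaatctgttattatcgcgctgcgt
lncRNA:CR31044: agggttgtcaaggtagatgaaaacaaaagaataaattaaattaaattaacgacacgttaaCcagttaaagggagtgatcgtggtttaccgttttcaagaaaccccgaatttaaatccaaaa
ph-p: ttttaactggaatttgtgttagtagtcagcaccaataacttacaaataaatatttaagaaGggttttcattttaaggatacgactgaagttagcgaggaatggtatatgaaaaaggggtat
larp: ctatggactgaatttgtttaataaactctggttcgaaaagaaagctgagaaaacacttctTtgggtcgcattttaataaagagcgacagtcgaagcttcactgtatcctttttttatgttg
Ptpmeg2: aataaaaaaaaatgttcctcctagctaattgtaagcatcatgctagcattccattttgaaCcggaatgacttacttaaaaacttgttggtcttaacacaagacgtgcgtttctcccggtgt
These windows were rich in A and T, with G and C making up between 28.9% (CG14100) and 38.8% (CG18549) of the bases. None of them held the exact word for the forkhead core or for the GAGA repeat searched for below, and variants of these were not searched for.

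The next sequences show the 2 words on which the comparison of classes turns, with every base of TGTTTAC (the forkhead core) and of GAGAGAG (the GAGA repeat) on either strand in capitals. On the opposite strand these read GTAAACA and CTCTCTC. Each window runs 100 bp to each side of the summit in dm6, 5′ to 3′ on the strand of the gene, and lies in an intron upstream of the TSS. They are from Rtnl1, a reticulon that shapes the endoplasmic reticulum (chr2L:4997618-4997818, minus strand), Syp, an RNA-binding protein (chr3R:20778582-20778782, plus strand), fok (chr2L:20085154-20085354, minus strand), and papi, a Tudor-domain protein of the piRNA pathway (chr2L:2221845-2222045, plus strand).
Rtnl1: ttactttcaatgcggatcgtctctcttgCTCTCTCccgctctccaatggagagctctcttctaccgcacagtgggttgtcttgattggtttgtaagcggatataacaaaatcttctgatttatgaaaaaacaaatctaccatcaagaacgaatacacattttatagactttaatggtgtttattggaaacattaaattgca
Syp: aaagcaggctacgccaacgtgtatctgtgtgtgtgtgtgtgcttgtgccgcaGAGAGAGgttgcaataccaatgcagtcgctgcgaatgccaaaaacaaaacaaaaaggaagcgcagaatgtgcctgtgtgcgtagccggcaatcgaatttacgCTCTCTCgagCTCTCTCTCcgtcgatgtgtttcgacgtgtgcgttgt
fok: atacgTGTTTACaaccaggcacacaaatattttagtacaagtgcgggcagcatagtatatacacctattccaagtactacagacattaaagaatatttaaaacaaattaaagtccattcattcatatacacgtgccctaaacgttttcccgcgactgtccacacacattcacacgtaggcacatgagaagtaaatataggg
papi: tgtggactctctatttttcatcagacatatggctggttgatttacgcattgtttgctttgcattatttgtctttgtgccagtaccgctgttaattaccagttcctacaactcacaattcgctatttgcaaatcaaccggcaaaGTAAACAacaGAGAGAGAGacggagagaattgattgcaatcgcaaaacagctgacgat
Syp had the repeat on both sides of its summit, and papi had the forkhead core a few bases from a GAGA repeat.

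Library depth was unknown because the deposited lists hold no read numbers. The relaxed lists were of equal length, but q-values of at most 0.01 were given to 1061 regions of replicate 5 and to 6870 of replicate 6. The signal is the value of the authors' peak caller, on a scale that is not stated, so signals are compared within a list, and ranks are given where the replicates are set side by side. The pooled signal at non-divergent promoters had a median of 90.3, with values between 69.0 and 609. It was close to the 91.1 at divergent promoters and the 90.7 beyond 500 bp. Of the 547 intervals, 477 had the same width of 380 bp.

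Summits lay mostly upstream of the nearest TSS. Of the 547 peaks, 428 had an upstream summit (78.2%, interval 74.5 to 81.6) and 119 had a downstream one, while 42.8% of the 17193794 bases that meet the rule lie upstream. The regions of highest signal in each replicate, taken alone and as many as the IDR list has peaks, gave 77.2% in replicate 5 (396 of 513 non-divergent promoter regions) and 72.0% in replicate 6 (444 of 617). Intervals here and below cover counting error over peaks only, since 2 replicates give little measure of the variation between samples.

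The median summit position relative to the TSS was -121 bp, negative meaning upstream, with quartiles at -210.5 and -17 bp. In the own lists of the replicates the median was -130.0 bp in replicate 5 and -88 bp in replicate 6. The 100 bp between 200 and 101 bp before the TSS held 164 summits, which is 30% of them against 9.03% of the bases. The next 100 bp up to the TSS held 118, and the first 100 bp of the transcribed side held 56 (10.2% against 12.5% of the bases). Beyond 100 bp downstream each bin held between 12 and 21 summits. The plot of summits by position shows this single hump before the start.

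**Figure D1:**
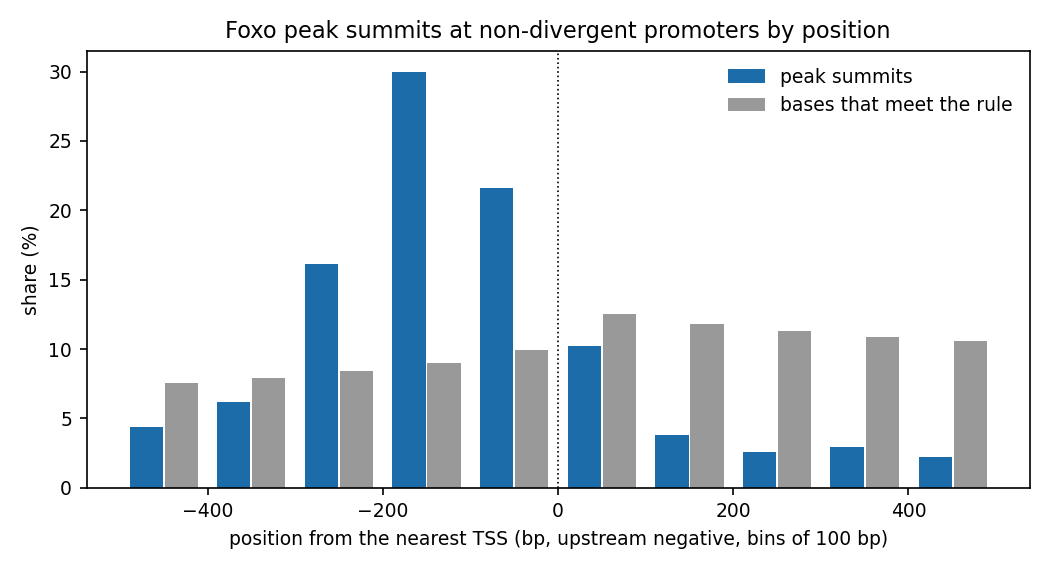
Share of the 547 peak summits and of the bases that meet the rule (y axis, %) in bins of 100 bp by position from the nearest TSS (x axis, bp, upstream negative). The bin from 200 to 101 bp before the TSS holds 30% of the summits and 9.03% of the bases, and all 4 bins beyond 100 bp downstream hold fewer summits than their share of bases.

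Upstream and downstream summits fell in different annotations, as the side itself largely requires, since bases after a start lie in a transcript. The share of the bases that meet the rule in each annotation was not counted, so no split beyond that is shown. Of the 428 upstream summits, 201 (47.0%) were intergenic and 180 (42.1%) were in introns, and 173 lay inside the span of the very gene whose TSS was nearest. Of these 173, 167 lay before an inner promoter, which places them inside the gene by definition. Of the 119 downstream summits, 72 (60.5%) were in a 5′ UTR, 26 (21.8%) in an intron and 18 (15.1%) in an exon of a non-coding gene. Coding sequence held 2 of all 547 summits. The nearest gene was protein-coding for 399 upstream peaks (93.2%) and 93 downstream peaks (78.2%), a difference of 15.1 points (95% Newcombe interval 8.02 to 23.6). That difference was 6.86 points (0.998 to 14.5) in the own list of replicate 5 and 14.8 points (8.57 to 21.8) in that of replicate 6. Upstream peaks had a median signal of 92.1 (quartiles 77.8 and 123) and downstream peaks one of 87.9 (quartiles 77.6 and 113), so their quartile ranges overlapped almost fully.

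The highest upstream peak belonged to Ugalt, with a pooled signal of 609, 370.4 in replicate 5 and 240.2 in replicate 6, and its summit lay 36 bp before the TSS. CG14100 followed with 569.7 pooled, 346 in replicate 5 and 225 in replicate 6, at 98 bp. CG1888 had 487 pooled, 276 in replicate 5 and 226 in replicate 6, at 211 bp before its second promoter, where the summit base is annotated as 5′ UTR of a longer transcript. These 3 peaks were within the top 7 of each replicate. CG18549 (452 pooled, 216 and 234 in replicates 5 and 6) and lncRNA:CR31044 (449 pooled, 246 and 212) had summits 76 and 159 bp before their starts. The peak of ph-p (408 pooled, 222 and 209) was near the outer limit of the rule at 495 bp, and those of larp (353 pooled, 214 and 155) and gish, a casein kinase (335 pooled, 188 and 144) lay 297 and 124 bp before inner promoters. All 8 ranked within the top 33 of both replicates.

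The highest downstream peak was that of PNPase, the polynucleotide phosphorylase of mitochondria, at chr3R:31404530-31404798 with 481 pooled, 261 in replicate 5 and 236 in replicate 6. Its summit lay 69 bp into the 5′ UTR of the second promoter. CG9147, whose start lies within 500 bp of that of Fbw5, had 429 pooled, 228 in replicate 5 and 208 in replicate 6, at chr2L:6065959-6066231 and 6 bp inside the transcript. Below these 2, which ranked within the top 12 of each replicate, the values dropped: the antisense gene asRNA:CR45928, within 500 bp of the start of eIF6, had 269 pooled, 168 in replicate 5 and 107 in replicate 6. The glutathione transferase gene GstE13 had 226 (134 and 95.1), lncRNA:CR46102 had 225 (132 and 86.2) and tank had 206 (122 and 85.2). CG8320 had 188 (98.1 and 90.9), and Trpm, a cation channel gene, had 185 (85.9 and 100.4) at promoter 3 of its 4. Of these 8 summits, 5 lay in a 5′ UTR.

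Peaks just inside the distance limit were those of jar (490 bp), ph-p (495 bp), CG9743 (498 bp) and aru (500 bp), with signals of 193, 408, 70.6 and 133. Just outside were those nearest to lncRNA:CR44363 (502 bp), Fim and Cyp310a1 (504 bp each) and lncRNA:CR44339 (507 bp), with signals of 84.0, 70.6, 93.6 and 73.6.

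Non-divergent promoter peaks were found mostly at genes with several promoters. TSSs of a gene within 200 bp of each other were merged into 1 promoter. At protein-coding genes 299 of 492 peaks (60.8%, interval 56.3 to 65.1) were at a gene with several promoters. Such genes are 20.5% of the 13945 protein-coding genes and hold 43.0% of their non-divergent promoters. Of the divergent peaks at protein-coding genes, 59 of 182 (32.4%) were at such a gene, which is 28.4 points fewer (20 to 36.0). The difference was 21.1 points (12.5 to 29.2) in the own list of replicate 5 and 28.4 points (19.6 to 36.5) in that of replicate 6. No background share over divergent promoters was computed for these differences. How far the classes of promoter differ in this without regard to peaks was therefore not tested. Over genes of all kinds, 307 of 547 peaks (56.1%) were at a gene with several promoters, against 34.5% of all non-divergent promoters.

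Within those genes the peaks were not concentrated at the first promoter. Of the 307, 94 (30.6%, interval 25.5 to 36.1) were at the first promoter, 113 (36.8%) at a middle one and 100 (32.6%) at the last. Among the 5396 non-divergent promoters of such genes, 33.0% are the first and 42.7% the last of their gene, so the share of last promoters among the peaks (interval 27.4 to 38.1) was lower than among the promoters. Equal use of every promoter of each gene would put 35.7% at the first and as many at the last. Both lie within the intervals of the peaks, but this equal share also counts divergent promoters, which the pool of 5396 leaves out. Whether the lower share at last promoters holds within genes over non-divergent promoters alone was not tested. The own lists of replicates 5 and 6 gave first-promoter shares of 29.6% and 31.7%. The inner promoters of the other 213 peaks lay a median of 3371 bp from the first, at 500 bp or more for 200 of the peaks. All 167 upstream summits at inner promoters were inside the span of their own gene, as the definition of an inner promoter requires.

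**Figure D2:**
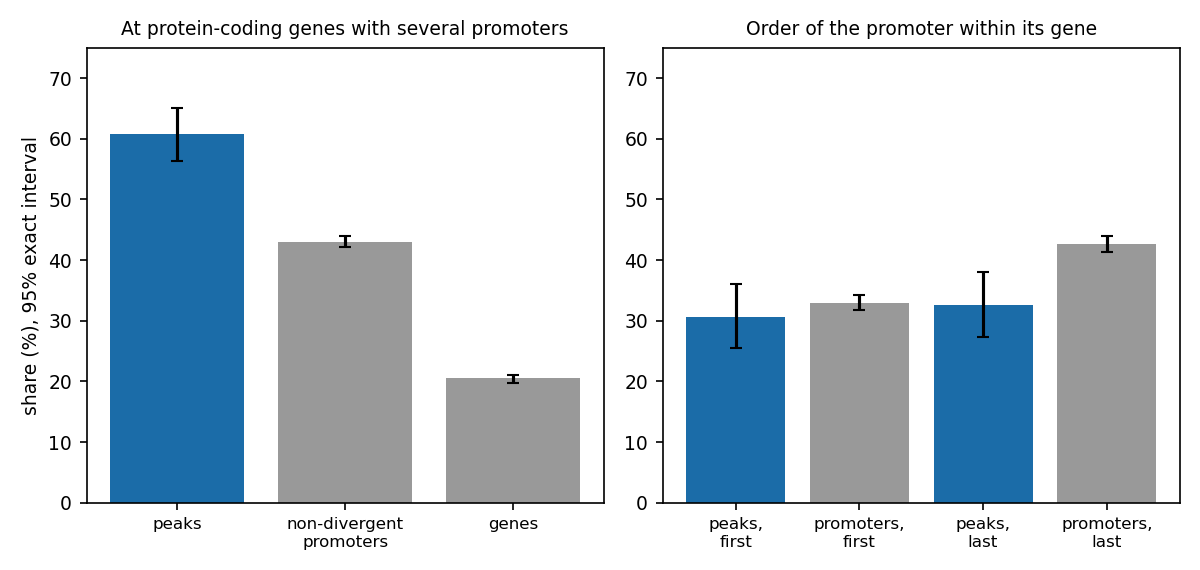
Left, share (%) of peaks, non-divergent promoters and genes that belong to protein-coding genes with several promoters; right, share (%) of the 307 peaks and of the 5396 non-divergent promoters that are the first or the last of a gene with several. Bars are shares and whiskers exact 95% intervals; 60.8% of peaks against 43.0% of promoters are on the left, and 30.6% against 33.0% for first and 32.6% against 42.7% for last promoters on the right.

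The peaks were nearest to 540 promoters of 512 genes, and 24 genes had peaks at more than 1 promoter. Rtnl1 had the most, with peaks at promoters 3, 4, 5 and 6 of its 7. They had pooled signals of 97.3, 92.0, 77.0 and 280.1, all upstream by between 160 and 337 bp, and the strongest was also strongest in each replicate (159.7 in replicate 5 and 110.3 in replicate 6). Ptpmeg2 had 3, at promoters 2, 4 and 5 of its 6, with signals of 99.9, 281 and 111. Promoter 4, 13220 bp from the first promoter, had 148 in replicate 5 and 134 in replicate 6, above the other two in both.

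Syp had peaks of 253 (92.8 in replicate 5 and 163 in replicate 6) and 164 (31.1 and 133) before promoters 2 and 4 of its 5. PAN3, a subunit of a poly(A) nuclease, had 98.1 and 251 before promoters 4 and 5 of its 6. The actin-regulating adaptor gene aru had 133 downstream of promoter 2 and 251 upstream of promoter 3, while egh, an enzyme of glycosphingolipid synthesis, had 80.0 and 170.1 downstream of promoters 1 and 3. In each of these 6 genes the strongest peak was at an inner promoter. Only egh among them had a peak at its first promoter, so for the others no other outcome was possible. The kinase gene sgg (74.6 and 147) and puc, the phosphatase that restrains JNK (76.2 and 142), also had peaks at more than 1 promoter.

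Of the 12 short words searched for on both strands within 100 bp of the summit, the GAGA repeat showed the largest difference from divergent peaks in the IDR list. In the own list of replicate 5 and in the G and C band below, that of the DNA replication-related element, also given below, was larger in size. In replicate 5 that of TATAAA was larger in size as well (-10.5 points, -18.5 to -2.78). GAGAGAG was present at 97 of the 547 (17.7%, interval 14.6 to 21.2). It was present at 4 of the 193 divergent peaks (2.07%, 0.568 to 5.22), at 12.7% of the 687 beyond 500 bp and at 6.24% of 14789 windows of the same length, centred 121 bp before the TSS, at non-divergent promoters without a peak. The difference from divergent peaks was 15.7 points (11.3 to 19.3). Divergent peaks also differed in base composition, with G and C at 40% ± 7.53 of the window in non-divergent promoter peaks and 36.0% ± 6 in divergent ones (SD over peaks). Among windows of 30 to 40% G and C, a band chosen after seeing the data, the repeat was at 25 of 261 (9.58%) and 2 of 133 (1.5%), a difference of 8.07 points (3.22 to 12.4).

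The own lists of the replicates kept the direction of that difference but not the level. In replicate 5 the repeat was at 11.1% of non-divergent and 2.72% of divergent promoter regions (difference 8.39 points, 4.14 to 11.8), and in replicate 6 at 22.4% and 7.19% (15.2 points, 9.33 to 19.8). Of the 154 non-divergent promoter peaks in the top of replicate 6 alone, 27.3% had the repeat, against 11.4% of the 132 in the top of replicate 5 alone, a difference of 15.9 points (6.75 to 24.6). The median rank of the 97 peaks with the repeat was 950.0 in replicate 5, where 80 had a region within 150 bp, and 509.5 in replicate 6, where 96 had one. How the libraries came to differ was not tested.

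Within the non-divergent promoter peaks, the repeat was more frequent upstream and at inner promoters in the IDR list, and the 2 replicates differed on both. Upstream peaks had it at 19.6% and downstream peaks at 10.9% (difference 8.70 points, 0.996 to 14.7). In replicate 6 alone the difference was 11 points (3.87 to 17.2), and in replicate 5 alone it was -4.43 points (-12.4 to 1.81). Inner promoters had it at 24.4% of 213 peaks, first promoters of genes with several at 12.8% of 94 (difference 11.6 points, 1.86 to 19.8), and genes with 1 promoter at 13.8% of 240. Replicate 6 gave 32.0% and 15.0% (16.9 points, 7.41 to 25.1), whereas replicate 5 gave 13.2% and 15.7% (-2.46 points, -12.6 to 5.84). Both differences were thus present in the IDR list and in replicate 6 and not in replicate 5. The repeat lay at a median position of -99 bp from the TSS (quartiles -192 and -62), 51 bp from the summit, and 87 of the 97 had it upstream of the TSS.

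The highest peak with the repeat was that of gish, given above, followed by Rtnl1 (280.1), Syp (253) and px, a wing vein gene (231 pooled, 134 in replicate 5 and 95 in replicate 6). The window of Rtnl1 shown above carries 1 match toward one end, and that of Syp carries several. Over fixed windows from 250 bp before to 50 bp after the start, the repeat was in 26.9% of the 540 TSSs nearest to a non-divergent promoter peak, 3.63% of the 193 nearest to a divergent peak and 7.01% of all 23584 TSSs counted by strand.

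**Figure D3:**
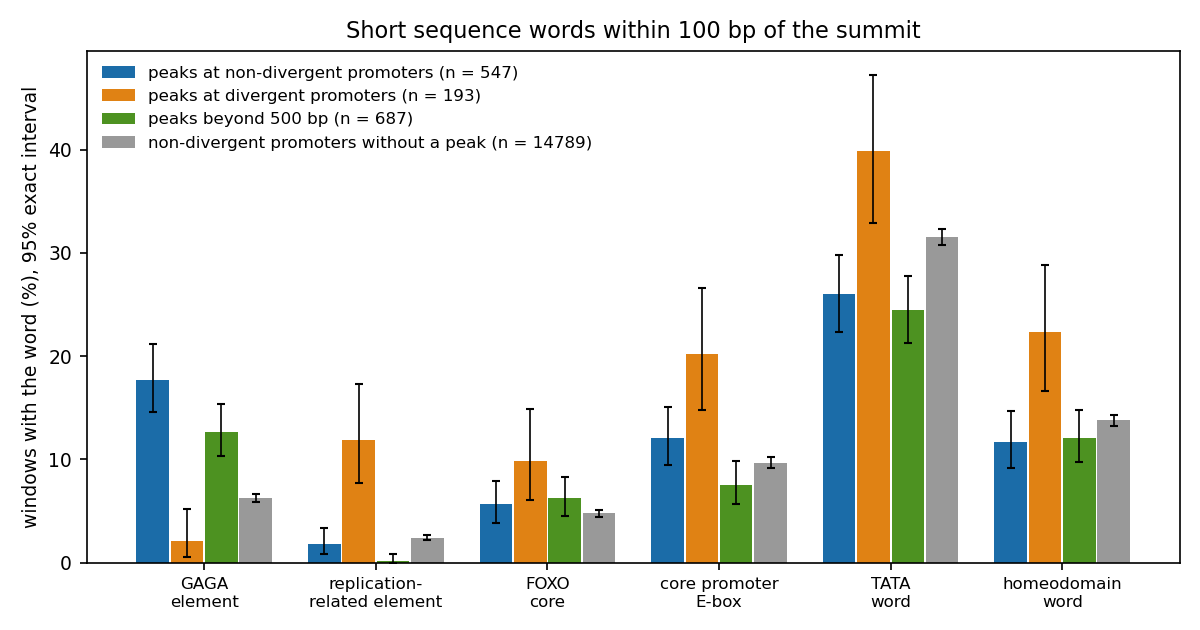
Share (%) of windows that hold a word on either strand within 100 bp of the summit, for 6 of the 12 words (x axis), in the 3 classes of peaks and in windows centred 121 bp before the TSS of non-divergent promoters without a peak. Bars are shares and whiskers exact 95% intervals; the GAGA repeat stands at 17.7% for non-divergent and 2.07% for divergent promoter peaks, and the replication-related element at 1.83% and 11.9%.

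The DNA replication-related element went the other way. TATCGATA was at 10 of the 547 non-divergent promoter peaks (1.83%) and at 23 of the 193 divergent ones (11.9%), a difference of -10.1 points (-15.5 to -5.96), and at 2.42% of the promoters without a peak. The own lists gave -11.4 points (-17.3 to -6.74) in replicate 5 and -11.1 points (-17.1 to -6.51) in replicate 6. At 30 to 40% G and C the difference was -8.60 points (-15.2 to -3.47). Over the fixed windows given above, TATCGATA was at 5% of the 540 TSSs nearest to a non-divergent promoter peak and 18.7% of the 193 nearest to a divergent peak. It was at 6.79% of all 23584 TSSs and 3.72% of non-divergent TSSs without a peak. Divergent promoters without a peak were not counted for any word, so differences between promoter classes apart from peaks were not tested.

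Several words rich in A and T, and an E-box, were also less frequent than at divergent peaks. TATAAA was at 26.0% against 39.9% (-13.9 points, -21.8 to -6.26), and 31.5% of promoters without a peak held it. At 30 to 40% G and C that difference was -7.24 points with an interval from -17.4 to 2.78. TAATTA was at 11.7% against 22.3% (-10.6 points, -17.4 to -4.51) and 13.8% of promoters without a peak. CAGCTG was at 12.1% against 20.2% (-8.14 points, -14.8 to -2.26) and 9.70% of promoters without a peak.

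For 6 other words the interval of the difference from divergent peaks included 0 in the IDR list. In the own lists of the replicates it left out 0 for AGGTCA in replicate 5 (2.77 points, 0.00868 to 4.75). It also did so for AAAAAAA in replicate 6 (-8.41 points, -16.1 to -1.58). CACGTG was at 2.93% of non-divergent against 4.15% of divergent promoter peaks, TCAGTT at 14.3% against 14.0% and TGATAAG at 4.39% against 2.59%. AGGTCA was at 2.74% against 0.518%, the motif of M1BP (GGTCACACT) at 0.914% against 1.55%, and AAAAAAA at 20.7% against 22.8%. Promoters without a peak held these 6 at 2.25%, 14.6%, 5.79%, 4.18%, 0.669% and 18.4%. AAAAAAA was less frequent at upstream than at downstream summits in the IDR list (18.2% against 29.4%, -11.2 points, -20.5 to -2.77), while in each replicate's own list the interval reached above 0.

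At the start itself, 9.81% of the 540 TSSs nearest to a non-divergent promoter peak (interval 7.44 to 12.6) had the initiator word TCAGTT beginning within 5 bp on the gene's strand. That was so for 2.07% of the 193 TSSs nearest to a divergent peak (0.568 to 5.22), 6.41% of non-divergent TSSs without a peak and 5.44% of all TSSs. TATAAA beginning between 40 and 20 bp before the start was found at 4.07% (2.57 to 6.10), against 3.11% nearest to a divergent peak, 6.77% without a peak and 6.10% of all.

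The forkhead core, counted as the exact word TGTTTAC, was rare, and its variants were not searched for. TGTTTAC was within 100 bp of the summit at 31 of the 547 non-divergent promoter peaks (5.67%, interval 3.88 to 7.95), at 9.84% of divergent peaks and at 6.26% of those beyond 500 bp. Non-divergent promoters without a peak held it at 4.79%, and the difference from them was 0.88 points (-0.804 to 3.17). The difference from divergent peaks was -4.18 points (-9.46 to -0.0493) in the IDR list, 0.886 points (-4.05 to 4.67) in replicate 5 and -2.50 points (-8.07 to 1.62) in replicate 6. Upstream peaks had it at 6.31% and downstream peaks at 3.36% (2.95 points, -2.38 to 6.35). The 31 peaks with the core had a median signal of 86.6, against 90.6 for the 516 without it.

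The highest peaks with the core were those of CG1635 (227 pooled, 117 in replicate 5 and 115 in replicate 6), shn, a zinc finger protein of Dpp signalling (206, with 77.6 and 128), and fok (205, with 77.7 and 129). Adk3, an adenylate kinase gene, had 167 (90.6 and 87.1), CG8306 had 149 (66.2 and 78.1) and papi had 139.7 (79.0 and 76.8). Their summits all lay upstream, between 17 and 189 bp from the start, and shn and papi had the GAGA repeat as well.

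Agreement between the replicates was partial. Of the 547 peaks, 229 (41.9%, interval 37.7 to 46.1) were matched within 150 bp in the top of both replicates, that is among as many of their highest regions as the IDR list has peaks. Another 132 were matched in the top of replicate 5 alone, 154 in that of replicate 6 alone and 32 in neither. Divergent peaks were in the top of both at 47.7% and those beyond 500 bp at 43.1%, with intervals that overlap. No region lay within 150 bp for 41 of the 547 in replicate 5 and for 6 in replicate 6. Over the 500 peaks with a region in both, Spearman's rho between the signals was 0.207 and Pearson's r on the log10 scale 0.307. Both are descriptions across peaks that share a selection on pooled signal. The rho was 0.238 for 394 upstream and 0.0815 for 106 downstream peaks, and 0.438 over the 3105 pooled regions at non-divergent promoters matched in both lists. The summits of the replicates lay a median of 38.5 bp apart.

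**Figure D4:**
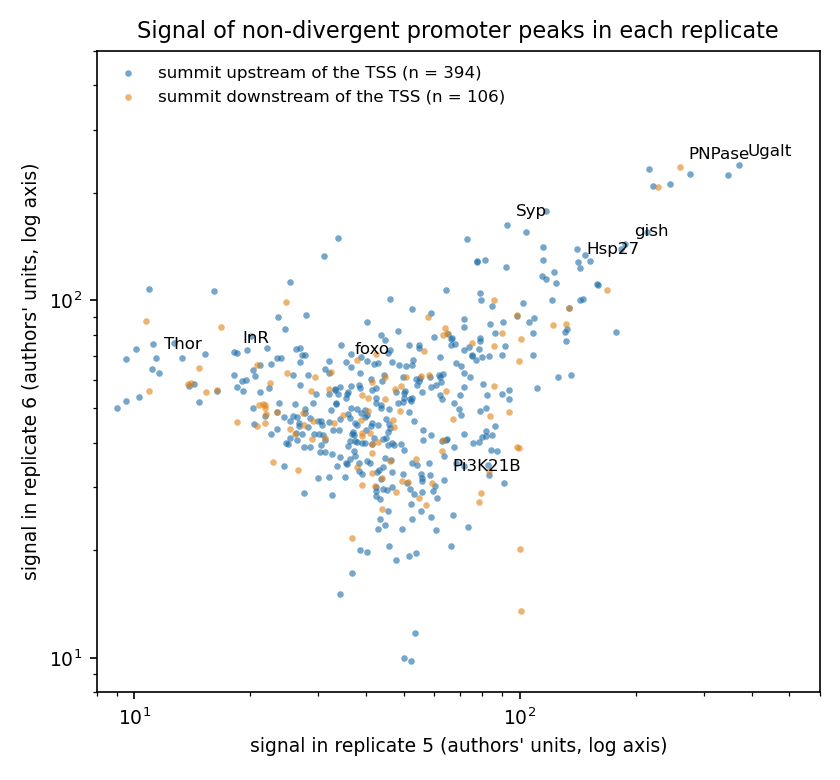
Signal of each non-divergent promoter peak in replicate 5 (x axis) and replicate 6 (y axis), both in the authors' units on log axes, for 394 upstream and 106 downstream summits with a region within 150 bp in both. Ugalt and PNPase are high in both replicates, while Thor has 11.4 in replicate 5 and 69.2 in replicate 6 and Pi3K21B has 63.7 and 31.5.

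At the limit of 150 bp some peaks were matched in 1 replicate only. Within 300 bp, 526 of the 547 were matched in both, against 500 within 150 bp. GstT4, a glutathione transferase gene, ranked 316 in replicate 5 and was unmatched in replicate 6 within 150 bp. So were deltaCOP, a coat protein of vesicles (rank 817), and CG8036 (rank 1088). In replicate 6, lncRNA:CR45297 ranked 63, CG13917 ranked 76 and Eip74EF, an ecdysone-induced transcription factor, ranked 142, all unmatched in replicate 5. CG13917 and Eip74EF had the GAGA repeat.

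Foxo peaks stood at the promoters of several genes of the pathway that controls foxo. A TSS within 500 bp of a peak was found for 574 genes, of which 497 were protein-coding (3.56% of the 13945 annotated). Counted by promoter, 651 of 22629 (2.88%) had one. Of 31 insulin and TOR signalling genes, 9 had one (29.0%, interval 14.2 to 48.0). This list and those below were chosen with earlier results of these data known, so their shares are descriptions. A gene with several promoters also has more starts where a peak can count, which the 3.56% per gene does not allow for. All 9 summits lay upstream of the gene's own start, and that of Pdk1 was also 53 bp inside the non-coding gene lncRNA:CR45805. The foxo gene had a peak within 500 bp of each of its promoters. The first peak had 108 pooled (35.5 in replicate 5 and 67.1 in replicate 6) at 101 bp before the first promoter, chr3R:14056654-14057033. The second had 71.2 (42.9 and 22.9) at 457 bp before the second promoter. That promoter is 974 bp from the first, so this summit lay between the starts. The first peak ranked 1268 in replicate 5 and 368 in replicate 6, and the second 812 and 5650, so each stood higher in a different replicate.

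The classical targets were moderate and uneven. InR, the insulin receptor, had 83.5 pooled (18.2 in replicate 5 and 71.9 in replicate 6) at 18 bp before the first of its 4 promoters, chr3R:21619149-21619528, with ranks of 6656 and 297. Thor, the translation repressor 4E-BP, had 90.0 (11.4 and 69.2) at 69 bp before its only promoter, chr2L:3478175-3478554, with ranks of 19167 and 335. Both were in the top of replicate 6 alone. Akt had no such peak: its nearest IDR peak (75.1) lay 715 bp from the start, outside the rule. That peak had a signal of 82.1 in replicate 6 and no region within 150 bp in replicate 5.

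Among the other members of the pathway, Sesn, a sestrin that restrains TOR, had the highest signal, 213 pooled with 114 in replicate 5 and 117 in replicate 6. The kinase sgg had 147 (93.6 and 56.0), and REPTOR, a transcription factor held back by TOR, had 105 (54.7 and 75.1). Pi3K21B, the adaptor subunit of PI3 kinase, had 90.2 (63.7 and 31.5), with ranks of 335 and 2898. Pdk1, the kinase upstream of Akt, had 102 (16.8 and 84.3), and scyl, an inhibitor of TOR, had 93.7 (13.3 and 68.9). These last 2 were, like Thor and InR, low in replicate 5, with ranks of 8092 and 13864. Of the 9 genes, Pdk1, scyl and Thor had the GAGA repeat near the summit and none had the forkhead core, a count of 0 that allows up to 3 of 9.

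**Figure D5:**
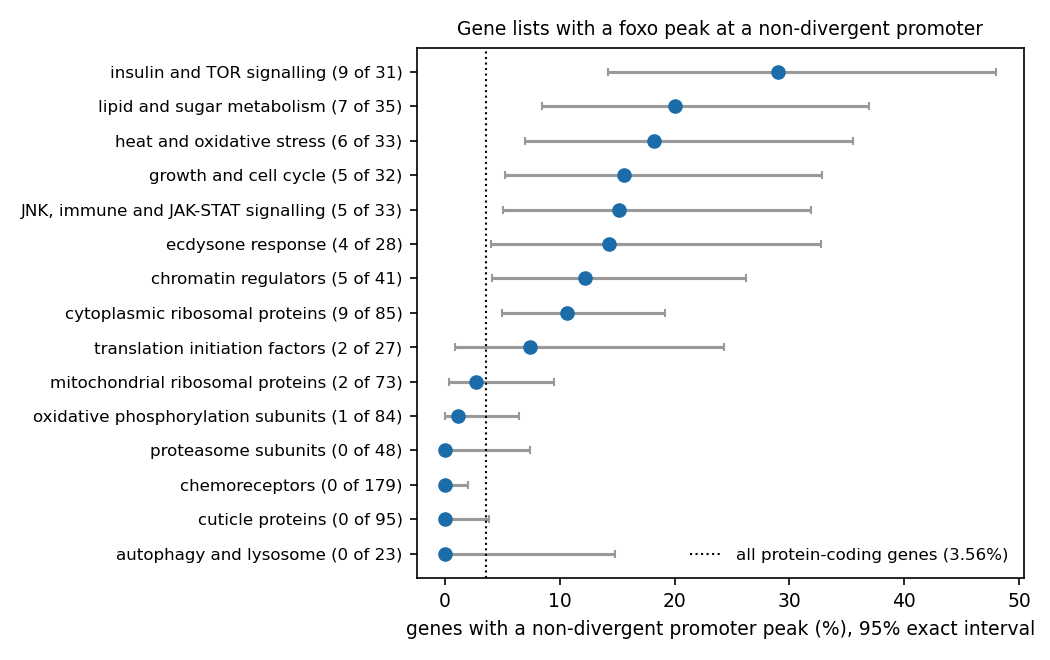
Share (%) of the genes of each of 15 lists with a foxo peak within 500 bp of a TSS at a non-divergent promoter (x axis), with exact 95% intervals; the dotted line is the 3.56% of all protein-coding genes. Insulin and TOR signalling stands highest at 29.0%, and the lists of chemoreceptors and cuticle proteins are at 0. The lists were chosen with earlier results of these data known, and the line does not allow for the number of promoters per gene.

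Metabolic and stress genes were represented as well, each with the background of 3.56% above. Of 35 lipid and sugar metabolism genes, 7 had a peak (20%), and 5 of them encode enzymes of glycolysis or lactate formation: Gapdh2 (294 pooled, 117 in replicate 5 and 178 in replicate 6), Ldh (146, with 52.6 and 94.9), Hex-A (119.6, with 82.9 and 34.7), Eno (118, with 43.8 and 80.1) and Pgk (83.4, with 14.0 and 58.9). The others were Lpin, a phosphatidate phosphatase (216, with 91.9 and 124), and Glyp, glycogen phosphorylase (123, with 81.6 and 41.8). Of 33 heat and oxidative stress genes, 6 had one (18.2%). They were the small heat shock genes Hsp27 (274, with 142 and 128), Hsp26 (92.2, with 63.0 and 40.4) and Hsp23 (87.2, with 22.6 and 66.4), the chaperone gene Hsp83 (151, with 68.1 and 75.4), catalase (139, with 93.8 and 48.8) and cnc, an oxidative stress regulator (105, with 50.8 and 61.0). The summits of catalase and cnc lay 298 and 364 bp downstream of the start, and those of the 4 heat shock genes 40 to 123 bp upstream.

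Regulators formed the next groups. Of 32 growth and cell cycle genes, 5 had a peak (15.6%), bun (119.8) and Dp (114) highest. Of 33 JNK, immune and JAK-STAT genes, 5 had one (15.2%), led by puc (142) and cact, the inhibitor of Dorsal (125). Of 28 ecdysone response genes, 4 had one (14.3%): the receptor EcR (143, with 64.3 in replicate 5 and 107 in replicate 6), the nuclear receptor Eip75B (119, with 45.6 and 71.1), Eip74EF (90.2) and the coactivator tai (69.3). Of 41 chromatin regulators, 5 had one (12.2%), with ph-p (408) and kis, a remodeller (119), highest, and 6 more had a divergent promoter peak only. Trl (101, with 19.6 and 72.5) and psq (118, with 48.7 and 66.1), whose products bind GAGA repeats, and trx (83.6, with 85.0 in replicate 6 and no region in replicate 5) were the other three; Trl and psq are singled out here after their values were seen.

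Housekeeping lists had lower shares than the lists above, with intervals that in part overlap, and no difference between lists was tested. The interval of the cytoplasmic ribosomal protein genes lay above the background of 3.56%, and those of the lists named after it here included that background. Of 85 cytoplasmic ribosomal protein genes, 9 had a peak (10.6%, interval 4.96 to 19.2), with RpL24 (93.0, with 43.7 and 50.1) and RpL30 (87.5, with 40.4 and 49.2) highest and a median of 78.9, and 15 more had a divergent promoter peak only. Their summits all lay within 85 bp of the start. Of 27 translation initiation factors, 2 had one (7.41%), eIF6 (269) and eIF4A (88.1), and 1 more had a divergent promoter peak only. Of 73 mitochondrial ribosomal protein genes, 2 had one (2.74%), mRpL41 (318) and mRpS31 (83.6), and 7 more had a divergent promoter peak only. Of 84 oxidative phosphorylation genes, COX7AL2 (73.0) alone had one (1.19%), and 3 more had a divergent promoter peak only.

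Counts of 0 were found for 179 chemoreceptor genes (3 counts would be 1.68%, exact upper limit 2.04%), 95 cuticle protein genes (3.16%, upper limit 3.81%), 48 proteasome genes (6.25%, upper limit 7.40%) and 23 autophagy and lysosome genes (13.0%, upper limit 14.8%). The last 3 upper limits lie above the background of 3.56%, so a share equal to it was within the interval at these list sizes. A divergent promoter peak only was found for 2 proteasome genes, 1 autophagy and lysosome gene, and 0 chemoreceptor or cuticle protein genes. Of the 55 listed genes with a peak, 13 had the GAGA repeat near the summit (23.6%, against 17.7% of all 547 peaks) and 1, trx, had the forkhead core (5.67% of all 547). These counts are near the shares of the whole class.

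Some peaks had the starts of more than 1 gene near them. TSSs of more than 1 gene lay within 500 bp of 59 peaks, on opposite strands at 31 and on 1 strand at 28, and at 3 of them the summit lay between starts that face each other. The most genes were at the peak of the tarsal-less locus, tal-1A with tal-2A, tal-3A and tal-AA, which encodes short peptides of leg development. It had 82.9 pooled, 65.9 in replicate 6 and no region within 150 bp in replicate 5. At Uhg4, a host gene of small nucleolar RNAs, the peak had 83.7 (32.1 and 54.7).

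Non-coding genes were the nearest for 47 peaks (8.59%), tRNA genes for 5, pseudogenes for 2 and a snoRNA gene for 1. For tRNA, snoRNA and microRNA genes the annotated start is that of the listed gene and need not be where transcription begins. After lncRNA:CR31044 and asRNA:CR45928 the highest were lncRNA:CR44619 (265, with 178 in replicate 5 and 81.6 in replicate 6) and lncRNA:CR46102, given above. The heat-induced lncRNA:Hsromega had 98.0 (49.0 and 49.1) at 209 bp downstream of its start. The 5 tRNA peaks had pooled signals between 76.5 and 80.7, in the lower part of the range.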

How the data were processed

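Foxo-GFP ChIP-seq peak lists of 2 replicates of 1 group were analysed. The authors deposited relaxed dm6 lists per replicate and pooled, and an IDR list derived from them per the notes deposited with the samples. The aligner and caller are not given in the sources used here, and read depth is unknown. The deposited signal is a caller score of unstated scale. The deposited significance column holds −log10 of a q-value. The deposited summit offset, in bp, gave the summit.

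TSSs came from Ensembl 115 without transposable elements, and sequences from the Release 6 genome. Positions are signed by the gene's strand. Chromosome ends fitted dm6. Classes, words and lists were counted in Python 3.11.15 with pandas 2.3.3, and intervals computed with scipy 1.17.1 and statsmodels 0.14.6. Newcombe intervals and the G and C band were chosen after seeing the data. The steps were tested on simulated summits. No p-value was computed.

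Genes named were the 8 highest peaks upstream and downstream, 6 highest inner promoters, 6 genes with peaks at several, the 6 highest with the forkhead core and 4 with the GAGA repeat, 3 best per replicate without the other, foxo, InR, Thor and Akt, and 2 per list; in the shorter lists further genes are named. Of the 15 gene lists, 10 names did not match. The peaks and lists were chosen with earlier results of these data known. The alternatives were single replicates, the peaks above the median signal, other distances, windows, merging and matching limits, and protein-coding TSSs. The dm3 lists and the control were not analysed here.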

Additional observations from a re-analysis of the deposited data

How the results depend on the processing

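With 1 group, no condition was compared. No paired analysis was possible because there was 1 group. Of 63 recomputed values, 48 stayed within the interval of the value reported (for the median position, of the spread between replicates), or within 1.5 times for counts. Among differences of shares, those in the GAGA repeat between upstream and downstream peaks and between inner and first promoters, and that in the forkhead core from divergent peaks, had the opposite sign in replicate 5, at -4.43, -2.46 and 0.886 points against 8.70, 11.6 and -4.18 in the IDR list. Leaving out 1 replicate gave 513 to 617 peaks, upstream shares of 72.0% to 77.2%, median positions of -130.0 to -88 bp, first-promoter shares of 29.6% to 31.7%, 534 to 643 genes, forkhead core shares of 6.48% to 7.41% and GAGA shares of 11.1% to 22.4%. Among IDR peaks above the median signal, 271 met the rule, at 286 genes, and 72.3% of them were in the top of both replicates. With 1000 bp to a TSS the upstream share was 68.3%. Windows of 50 and 200 bp gave forkhead core shares of 3.11% and 12.8% and GAGA shares of 8.41% and 29.8%, as the windows hold fewer or more bases. At 30 to 40% G and C the GAGA share was 9.58%. With summits matched within 50 bp, 27.6% were in the top of both replicates and rho was 0.312. The difference between non-divergent and divergent promoter peaks in the GAGA repeat kept its direction in all 7 settings tried. Read depth was unknown, so the lower rank of a peak in 1 replicate cannot be told apart from lower depth.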
